A study of Mus musculus with 6 samples.

Results

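The 10 genes described here, *Id4*, *Gfra1*, *Zbtb16*, *Etv5*, *Nanos2*, *Nanos3*, *Ret*, *Lin28a*, *Sall4* and *Pou5f1*, are known from undifferentiated spermatogonia, the mitotic germ cells of the testis that include the spermatogonial stem cells. They were taken by name from a table of 54532 genes. The choice was made with earlier results of these data known. The values are RNA-seq of total RNA from STRA8+ germ cells of mouse testes, with 3 control libraries (genotype Cre) and 3 libraries with an *Srsf1* knockout, called cKO. SRSF1 is a splicing factor of the serine/arginine-rich family. The labels name a conditional knockout, but they give neither the promoter that drives Cre, nor the age of the mice, nor whether the controls carry a floxed *Srsf1* allele, nor how STRA8+ cells were collected. They also do not say whether the libraries came from separate mice, so the spread between libraries may be technical.

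Undifferentiated spermatogonia respond to GDNF, a growth factor secreted by Sertoli and other somatic cells of the testis. GDNF binds the co-receptor GFRA1 and thereby activates the receptor tyrosine kinase RET, and *Etv5* and *Bcl6b*, genes of transcription factors, are known targets of this signal. ID4 holds basic helix-loop-helix factors away from DNA, ZBTB16 (PLZF) and SALL4 are zinc finger transcription factors, and POU5F1 (OCT4) is a POU-domain factor shared with pluripotent cells. NANOS2, NANOS3 and LIN28A bind RNA. When spermatogonia respond to retinoic acid they switch on *Stra8* and *Kit* and leave this state, so STRA8+ cells lie after it in development.

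The libraries held between 15364511 and 17310353 fragments counted on genes in the control group and between 14447887 and 15326722 in the cKO group. *Srsf1* itself was at 84.7, 45.2 and 51.9 FPKM (fragments for each kilobase of a gene, scaled to library size) in control replicates 1, 2 and 3, and at 5.08, 4.94 and 5.17 FPKM in the cKO libraries. *Stra8* was abundant in every library and overlapped between groups, at 261.7, 222.1 and 249.5 FPKM in controls and 242.1, 312.7 and 261.7 FPKM in cKO libraries. *Kit* lay between 36.3 and 37.1 FPKM in controls and between 38.1 and 42.0 FPKM in cKO libraries. The control libraries also held RNA of later germ cells. The summed FPKM of 10 spermatid markers was 2579, 8486 and 2536 in controls against 10.6, 10.3 and 8.55 in cKO libraries, and that of 10 pachytene markers was between 711 and 859 against between 117 and 136. Control replicate 2 thus stood apart from the other controls in spermatid RNA. In bulk RNA, fewer cells of a type and less RNA per cell cannot be told apart, and this holds for every gene below.

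Among the 9 genes that could be tested, *Id4* fell and *Ret* rose in cKO libraries, and the other 7 did not pass the test. *Nanos2* was too low to be tested. A gene was tested where its mean over the 6 libraries was at least 1 FPKM, on log2(FPKM + 1) with limma, and was called at a Benjamini-Hochberg adjusted p of at most 0.05 over 15451 genes. Of all genes tested, 34.0% were called, 11.8% higher and 22.2% lower in cKO libraries, beside 2 of the 9 genes here. The median log2 fold change (cKO against control) was 0.11 over the 9 genes and -0.0082 over all genes tested. The cKO libraries lay wholly above or below the control libraries for 3 of the 9 genes, against 50.4% of all genes tested. The summed FPKM of the 10 genes was between 56.8 and 70.8 in controls and between 62.7 and 71.3 in cKO libraries.

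**Figure D1:**
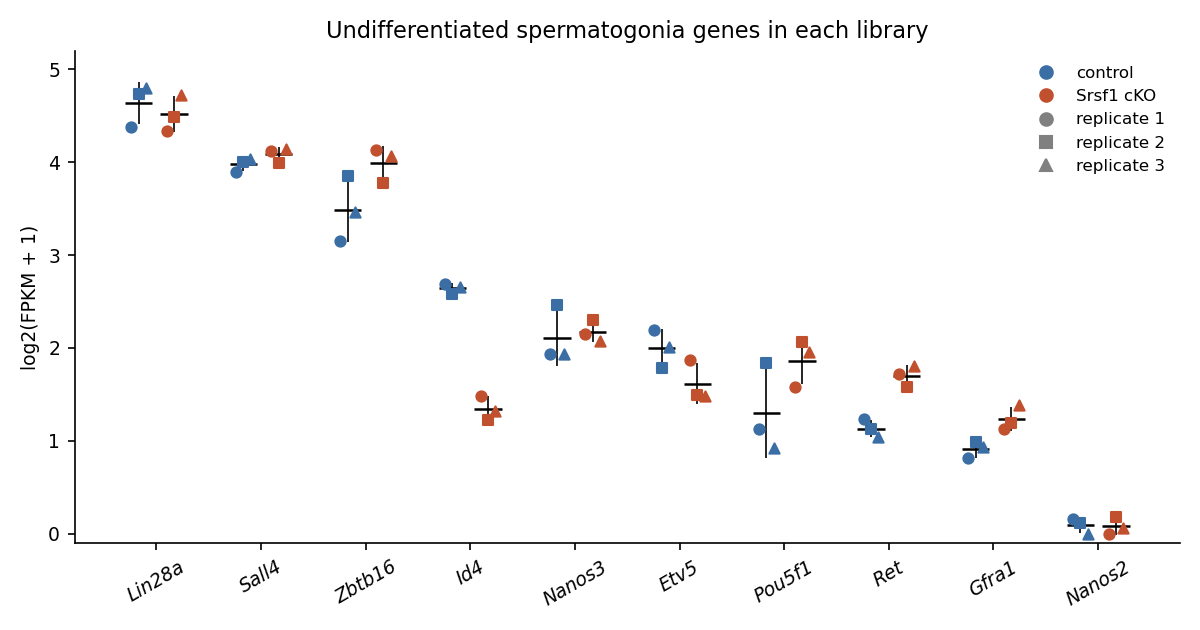
Log2(FPKM + 1) of the 10 genes, with 1 point for each of the 3 control and 3 cKO libraries and the mean and SD of each group. *Id4* is the gene whose cKO points, at 1.33 to 1.80 FPKM, lie below all of its control points at 4.97 to 5.44 FPKM, while the cKO points of *Ret* and *Gfra1* lie above their control points.

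The promoter of *Id4*, the gene with the largest change, is shown here beside those of *Etv5* and *Gfra1*, which belong to the GDNF response and did not pass the test. Each run is the 250 bases before a transcription start in RefSeq (GRCm38.p6), 5′ to 3′ on the strand of the gene. Such a sequence was at hand for 7 of the 10 genes. Capitals mark 3 kinds of motif, searched on both strands. The GC box is GGGCGG and the CCAAT box is CCAAT. The E-boxes searched were CAGGTG and also the palindromes CAGCTG and CACGTG. No marked matches overlap. The TATA box (TATAAA), a retinoic acid receptor half-site (AGGTCA) and the ETS core (CCGGAA) were searched too but are not marked. Of these, the windows shown held only 1 ETS core, in *Gfra1*, a motif found in 12.0% of all promoters. The starts lie 112, 149 and 511 bases from the gene starts in the deposited table for *Id4*, *Etv5* and *Gfra1*.
Id4, chr13:48260866-48261115, plus strand: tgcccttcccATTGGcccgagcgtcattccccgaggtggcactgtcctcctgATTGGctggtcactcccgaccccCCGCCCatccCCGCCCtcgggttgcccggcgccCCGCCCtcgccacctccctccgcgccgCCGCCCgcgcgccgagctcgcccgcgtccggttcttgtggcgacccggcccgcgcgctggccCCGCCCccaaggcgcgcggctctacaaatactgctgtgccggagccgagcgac
Etv5, chr16:22439571-22439820, minus strand: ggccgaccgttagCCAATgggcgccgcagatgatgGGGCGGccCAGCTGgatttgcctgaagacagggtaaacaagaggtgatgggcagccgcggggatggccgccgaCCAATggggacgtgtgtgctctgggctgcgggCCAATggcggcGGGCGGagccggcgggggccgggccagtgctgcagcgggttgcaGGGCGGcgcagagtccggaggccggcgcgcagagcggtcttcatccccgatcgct
Gfra1, chr19:58455399-58455648, minus strand: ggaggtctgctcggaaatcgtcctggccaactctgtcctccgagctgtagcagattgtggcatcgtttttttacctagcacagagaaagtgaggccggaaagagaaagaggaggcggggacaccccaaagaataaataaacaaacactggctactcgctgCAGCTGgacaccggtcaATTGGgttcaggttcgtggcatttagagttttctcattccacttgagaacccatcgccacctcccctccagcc
The *Id4* window had a GC content of 75.6% and 35 CpG, and held 5 GC boxes and 2 CCAAT boxes. The *Etv5* window had a GC content of 71.2% and 27 CpG, with 3 GC boxes, 3 CCAAT boxes and 1 CAGCTG. A second RefSeq start of *Etv5* (window chr16:22438369-22438618) had 62% GC, 18 CpG, no GC box, 1 CCAAT box and none of the E-boxes. The *Gfra1* window was less rich in these letters, with 52.4% GC, 10 CpG, no GC box, 1 CCAAT box and 1 CAGCTG. Over 32851 promoters of the same length the median was 52.4% GC and 6 CpG. A GC box was found in 32.7% of them, a CCAAT box in 33.9%, CAGGTG in 17.2%, CAGCTG in 13% and CACGTG in 6.02%. These matches describe letters only, and no binding was measured.

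*Id4* (ENSMUSG00000021379) encodes an inhibitor of DNA binding and is a marker of the most stem-like spermatogonia. In GRCm38 it is found on chromosome 13 (plus strand, 48261228 to 48266026), with 1 annotated transcript of 3 exons. Its level was 5.44, 4.97 and 5.32 FPKM in controls and 1.80, 1.33 and 1.5 FPKM in cKO libraries. All 3 cKO libraries lay well below all 3 controls. The mean was 5.24 ± 0.246 FPKM (SD, n = 3) in controls and 1.55 ± 0.239 FPKM (SD, n = 3) in cKO libraries, or 29.5% of the control mean. On the log2(FPKM + 1) scale, which understates the change of low genes, the fold change was -1.30 (SE 0.12, 95% CI -1.58 to -1.02, limma adjusted p = 0.000237). These levels rest on 345, 293 and 354 fragments in controls and 109, 75 and 88 in cKO libraries. Among the protein-coding genes tested, *Id4* stood at the 32.8th percentile of control means and at the 14.5th percentile of cKO means.

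The fall of *Id4* moved together with that of pachytene and spermatid markers, of which 9 of 10 pachytene and 10 of 10 spermatid genes were also called lower, beside 22.2% of all genes. Of these, 4 pachytene and 6 spermatid genes had a cKO mean under 1 FPKM and reached the test only through the controls. Of 11 early meiotic prophase genes tested, none was called higher and 2 were called lower, with a median of -0.06 and overlapping sums of 1402 to 1896 FPKM in controls and 1518 to 2041 FPKM in cKO libraries. The part of these cells in the fall of *Id4* was not tested. Within the controls, replicate 2 had the highest summed spermatid FPKM and the lowest *Id4*, at 4.97 FPKM against 5.44 and 5.32 FPKM. That *Id4* difference was small and lies in 1 library, and its relation to spermatid RNA was not tested. With control replicate 2 left out or any other library left out, the log2 fold change of *Id4* was between -1.37 and -1.24 and was called each time. The genes on the opposite strand, *A330033J07Rik* and *Gm49291*, share 2.13% and 4.44% of its exonic bases. Such genes also overlap *Pou5f1* (14.1%, *Gm19553*), *Sall4* (9.50%, *Gm14261*), *Gfra1* (7.60%, *Gm16277*) and *Lin28a* (5.86%, *Gm13061*). Whether the counting used strand is not given in the sources used here, so the reads of such pairs cannot be told apart.

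None of the other ID genes was called lower. *Id1*, another inhibitor of helix-loop-helix factors, was at 1.73, 3.26 and 2.14 FPKM in controls and 7.35, 4.0 and 5.84 FPKM in cKO libraries. The cKO libraries lay above the controls, with a log2 fold change of 0.99 (SE 0.24, limma adjusted p = 0.0184). This call was lost without cKO replicate 1, cKO replicate 3, control replicate 1 or control replicate 3. *Id3* was at 0.508, 1.02 and 0.452 FPKM in controls and 1.63, 1.14 and 1.25 FPKM in cKO libraries. Those groups did not overlap either, but the change was not called (0.51, limma adjusted p = 0.0789), and *Id3* reached the test only through the cKO libraries. *Id2* overlapped between groups, with a log2 fold change of 0.27 that was not called. Among the proteins that ID factors bind, the E protein gene *Tcf3* rose by 0.40 on the log2 scale, *Tcf12* was at 0.23 and was not called, and *Tcf4* was too low to be tested.

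*Ret* (ENSMUSG00000030110) encodes the signalling receptor for GDNF. It lies on the minus strand of chromosome 6 (118151745 to 118197718) and encodes 1115 residues in 20 exons. Its level was 1.35, 1.18 and 1.06 FPKM in controls and 2.31, 1.98 and 2.50 FPKM in cKO libraries. Every cKO library was above every control. The mean rose from 1.19 ± 0.144 to 2.26 ± 0.263 FPKM (SD, n = 3 each), 1.89-fold, with a log2 fold change of 0.57 (SE 0.13, 95% CI 0.25 to 0.89, limma adjusted p = 0.0167). The counts behind it were 150, 122 and 124 fragments in controls and 245, 196 and 257 in cKO libraries. The call was lost in limma fits without cKO replicate 1 (adjusted p = 0.0514), without cKO replicate 3 (0.0700) or without control replicate 3 (0.0576), although the log2 fold change remained between 0.52 and 0.63 when any single library was left out.

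*Gfra1*, the GDNF co-receptor (ENSMUSG00000025089, minus strand of chromosome 19, 58235604 to 58455909), was at 0.754, 0.977 and 0.908 FPKM in controls and 1.19, 1.28 and 1.61 FPKM in cKO libraries. The cKO libraries were above the controls without overlap. The means were 0.880 ± 0.114 and 1.36 ± 0.222 FPKM (SD, n = 3 each), a ratio of 1.55, but the log2 fold change of 0.33 (95% CI -0.02 to 0.67) was not called, with a limma adjusted p of 0.131. Its control mean was under 1 FPKM, so it reached the test only through the cKO libraries. It was called with limma-voom on the counted fragments (0.67, adjusted p = 0.0434) and after quantile normalisation (0.94, adjusted p = 0.00331).

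Within a library, the ratio of *Ret* to *Gfra1* FPKM was 1.79, 1.2 and 1.17 in controls and 1.94, 1.54 and 1.55 in cKO libraries. The groups overlapped in this ratio. The ratio of *Id4* to *Ret* was 4.04, 4.22 and 5.02 in controls and 0.782, 0.672 and 0.602 in cKO libraries. *Id4* was thus above *Ret* in every control and below it in every cKO library. Since *Id4* and *Ret* are the genes called in opposite directions, this ratio restates those calls as a description. Such ratios do not depend on the scaling of the library.

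*Etv5*, an ETS factor and target of GDNF signalling (ENSMUSG00000013089, minus strand of chromosome 16, 22381309 to 22439719), was at 3.58, 2.43 and 3.04 FPKM in controls and 2.65, 1.81 and 1.80 FPKM in cKO libraries. The groups overlapped through control replicate 2 and cKO replicate 1. Its log2 fold change of -0.38 (SE 0.17, 95% CI -0.78 to 0.02, limma adjusted p = 0.128) was not called. The ratio of *Etv5* to *Ret* was 2.66, 2.07 and 2.87 in controls and 1.15, 0.917 and 0.718 in cKO libraries, without overlap. Since *Ret* was itself called higher, this ratio largely restates that call and is no separate evidence for a fall of *Etv5*. The related *Etv4* was at 0.19 and was not called, and *Etv1* was too low to be tested. *Bcl6b*, the other GDNF target, was at 1.01, 1.25 and 1.17 FPKM in controls and 1.90, 2.15 and 3.24 FPKM in cKO libraries. It was called higher, with a log2 fold change of 0.66 (SE 0.18, limma adjusted p = 0.0266). The values of *Etv5* and *Bcl6b* thus had opposite signs, but only that of *Bcl6b* passed the test.

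Of 34 listed genes of GDNF signalling and its intracellular relays, 31 could be tested, 5 were called higher and 2 lower, beside 11.8% and 22.2% of all genes tested. Their median log2 fold change was 0.05, beside -0.0082 over all genes. The ligand *Nrtn*, which acts mainly through GFRA2, had the largest rise, from between 21.0 and 33.1 FPKM in controls to between 40.6 and 46.7 FPKM in cKO libraries (0.66). The relays *Map2k1* (0.37), *Grb2* (0.34), *Gab1* (0.30) and *Ptpn11* (0.27) rose by less. *Pik3ca*, a catalytic subunit of PI3 kinase, fell by 0.53 on the log2 scale. The other gene called lower, *Gfra2*, reached the test only through the controls. *Gdnf* itself was below 1 FPKM in every library, at 0.397, 0.160 and 0.236 FPKM in controls and 0.554, 0.353 and 0.322 FPKM in cKO libraries. The count of 5 higher genes was 4 without control replicate 2, 2 without any other single library, 1 when libraries were scaled to differentiating spermatogonia genes and 11 after quantile normalisation. The count of 2 lower genes was 1 without cKO replicate 3, control replicate 1 or control replicate 3, 3 after scaling to differentiating spermatogonia genes and 0 after quantile normalisation.

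Of the co-receptors related to *Gfra1*, 1 was called lower. *Gfra2* was at 1.48, 4.30 and 1.19 FPKM in controls and 0.0360, 0 and 0.0558 FPKM in cKO libraries. It was called lower with a log2 fold change of -1.57 (SE 0.33, limma adjusted p = 0.0113). It reached the test only through the controls, where its mean was 2.32 FPKM. Control replicate 2, the library with most spermatid RNA, was also the highest for *Gfra2*. This match is in 1 library, and a relation of *Gfra2* to spermatid RNA was not tested. *Gfra4* was at 4.32, 5.18 and 3.85 FPKM in controls and 3.38, 3.09 and 2.28 FPKM in cKO libraries. The groups did not overlap, but the adjusted p of 0.0523 from limma missed the threshold. *Gfra3* overlapped between groups, at -0.05.

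**Figure D2:**
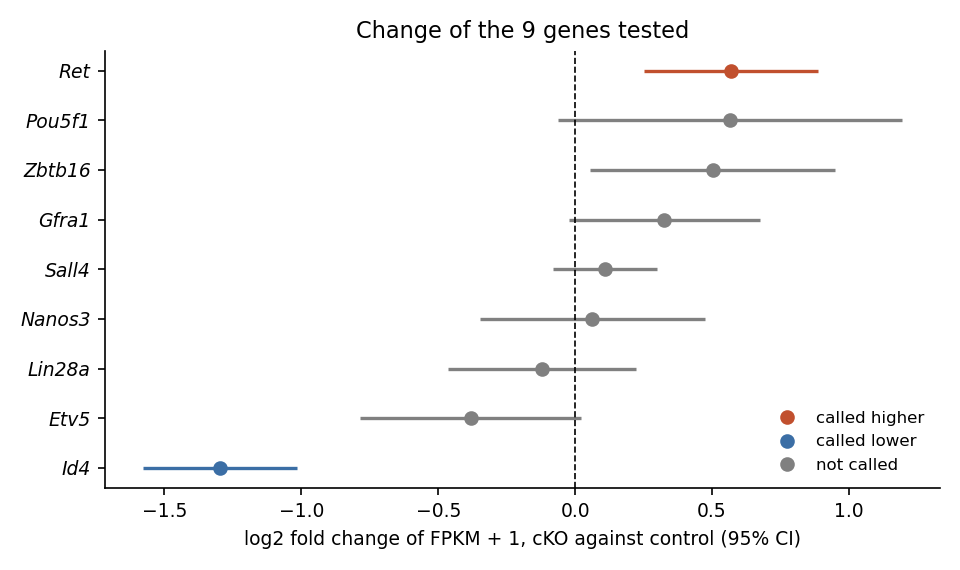
Log2 fold change of FPKM + 1, cKO against control, with its 95% CI for the 9 genes tested. *Id4* at -1.30 and *Ret* at 0.57 were called after adjustment over all genes, whereas the interval of *Zbtb16* lies above 0 (0.05 to 0.95) although its adjusted p of 0.082 missed the threshold.

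The zinc finger genes were among the most abundant of the 10. *Zbtb16* (ENSMUSG00000066687), which encodes PLZF and is needed to maintain spermatogonial stem cells, lies on the minus strand of chromosome 9 (48654297 to 48836222). It was at 7.87, 13.5 and 10.034 FPKM in controls and 16.5, 12.7 and 15.8 FPKM in cKO libraries. Control replicate 2 was above cKO replicate 2, so the groups overlapped. The means were 10.5 ± 2.82 and 15.0 ± 2.01 FPKM (SD, n = 3 each), and the log2 fold change of 0.50 (SE 0.19) had a limma adjusted p of 0.082. It passed the threshold without control replicate 2 (0.68, adjusted p = 0.0183), with limma-voom (adjusted p = 0.0463) and after quantile normalisation (adjusted p = 0.0247). *Zbtb32*, which encodes a related BTB zinc finger protein, was called lower, from 47.6, 41.6 and 39.1 FPKM to 22.6, 24.8 and 23.6 FPKM (log2 fold change -0.82).

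*Sall4*, a zinc finger gene shared with embryonic stem cells (ENSMUSG00000027547, minus strand of chromosome 2, 168748332 to 168767943), had the smallest standard error of the 9 tested (0.08). It was at 13.9, 15.0 and 15.3 FPKM in controls and 16.4, 14.9 and 16.7 FPKM in cKO libraries, which overlapped. The log2 fold change was 0.11 with a 95% CI of -0.08 to 0.30, and the limma adjusted p was 0.333. *Sall1* overlapped between groups as well (-0.04), and *Sall2* and *Sall3* were too low to be tested.

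*Pou5f1* (ENSMUSG00000024406, plus strand of chromosome 17, 35506018 to 35510772) was at 1.19, 2.58 and 0.900 FPKM in controls and 1.98, 3.19 and 2.87 FPKM in cKO libraries. Control replicate 2 lay within the cKO range and the other controls lay below it. The means were 1.56 ± 0.900 and 2.68 ± 0.626 FPKM (SD, n = 3 each), and the log2 fold change of 0.57 (SE 0.26, 95% CI -0.06 to 1.19) was not called (limma adjusted p = 0.144). It was as large as that of *Ret* but had a larger standard error. Without control replicate 2 it was 0.84 and was called (adjusted p = 0.0182), as it was after quantile normalisation (adjusted p = 0.0272). These values rest on 35 to 105 fragments in a library. *Pou5f2*, a POU gene that is also in the pachytene list, was at 9.23, 8.89 and 9.46 FPKM in controls and 0.137, 0.196 and 0.0472 FPKM in cKO libraries, with a log2 fold change of -3.18. It reached the test only through the controls, and it rests on 3, 4 and 1 fragments in the cKO libraries.

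Among the RNA-binding genes no change was called. *Lin28a* (ENSMUSG00000050966, minus strand of chromosome 4, 134003330 to 134018841), a translational regulator and inhibitor of let-7 processing, was the most abundant of the 10. Its level was 19.7, 25.6 and 26.8 FPKM in controls and 19.2, 21.4 and 25.4 FPKM in cKO libraries. The groups overlapped widely, at a log2 fold change of -0.12 (95% CI -0.46 to 0.22, limma adjusted p = 0.552). *Lin28b* differed by 0.10 and was not called either. *Tut4*, which encodes the uridylyltransferase that acts with LIN28A on let-7 precursors, rose from between 31.6 and 37.0 FPKM to between 49.6 and 58.1 FPKM (0.63). *Tut7*, the related uridylyltransferase gene (0.21), and *Dis3l2*, which encodes an exonuclease that degrades uridylated let-7 precursors (-0.21), were not called.

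*Nanos3* (ENSMUSG00000056155, minus strand of chromosome 8, 84173731 to 84185217) was at 2.83, 4.52 and 2.82 FPKM in controls and 3.44, 3.92 and 3.20 FPKM in cKO libraries. The cKO libraries lay inside the control range, and the log2 fold change was 0.06 (95% CI -0.35 to 0.47, limma adjusted p = 0.804), turning to -0.02 when libraries were scaled to differentiating spermatogonia genes. *Nanos2* (ENSMUSG00000051965, plus strand of chromosome 7, 18987400 to 18988962), which acts in stem cells downstream of GDNF, was at 0.117, 0.0835 and 0 FPKM in controls and 0, 0.131 and 0.0421 FPKM in cKO libraries. That is 3, 2 and 0 fragments against 0, 3 and 1, at or under 3 fragments in every library, so no difference was detectable at this depth. *Gm45058* on the other strand shares 49.0% of the exonic bases of *Nanos2*. *Nanos1* was at 0.25 and was not called. Among NANOS partners, *Dnd1* rose by 0.75, *Pum2* by 0.36 and the deadenylase gene *Cnot8* by 0.25 on the log2 scale, while *Cnot1* (-0.04) was not called.

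Levels per kilobase could be ordered within each group. In controls the order of the means was *Lin28a*, *Sall4*, *Zbtb16*, *Id4*, *Nanos3*, *Etv5*, *Pou5f1*, *Ret*, *Gfra1* and *Nanos2*. The ranges of neighbours overlapped for *Nanos3* and *Etv5*, *Etv5* and *Pou5f1*, and *Pou5f1* and *Ret*, which therefore had no clear order. In cKO libraries the order was *Lin28a*, *Sall4*, *Zbtb16*, *Nanos3*, *Pou5f1*, *Ret*, *Etv5*, *Id4*, *Gfra1* and *Nanos2*. Here *Id4* overlapped with its neighbours *Etv5* and *Gfra1*, whereas in controls it stood clear of both neighbours. The other overlapping neighbours in cKO libraries were *Sall4* and *Zbtb16*, *Pou5f1* and *Ret*, and *Ret* and *Etv5*.

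Beside these genes, 32 further genes known from undifferentiated spermatogonia were examined. Which cells in the libraries held their RNA was not tested. Of the 32 genes, 22 could be tested, 8 were called higher and none lower. Over all genes tested 11.8% were called higher and 22.2% lower. The median log2 fold change of the 22 was 0.30. The 8 were *Ddit4* (1.04), *Dnd1* (0.75), *Utf1* (0.75), *Cd9* (0.66), *Bcl6b* (0.66), *Glis3* (0.64), *Mcam* (0.57) and *Itgb1* (0.56). *Glis3* had a mean of 0.766 FPKM in controls and 1.74 FPKM in cKO libraries, so it reached the test only through the cKO libraries. *Ddit4* is a stress-responsive inhibitor of mTORC1, *Utf1* encodes a chromatin protein of pluripotent cells, and *Cd9*, *Mcam* and *Itgb1* encode surface proteins. *Dnd1*, an RNA-binding partner of NANOS proteins, was at 8.83, 15.1 and 12.2 FPKM in controls and 21.4, 19.1 and 21.4 FPKM in cKO libraries. *Egr3* (-0.28), *Taf4b* (-0.11), *Sox3* (0.02) and *Foxo1* (0.14) were not called. The count of 8 was 5 without cKO replicate 1, control replicate 1 or control replicate 3, 4 without cKO replicate 3, 7 after scaling to differentiating spermatogonia genes and 15 after quantile normalisation.

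**Figure D3:**
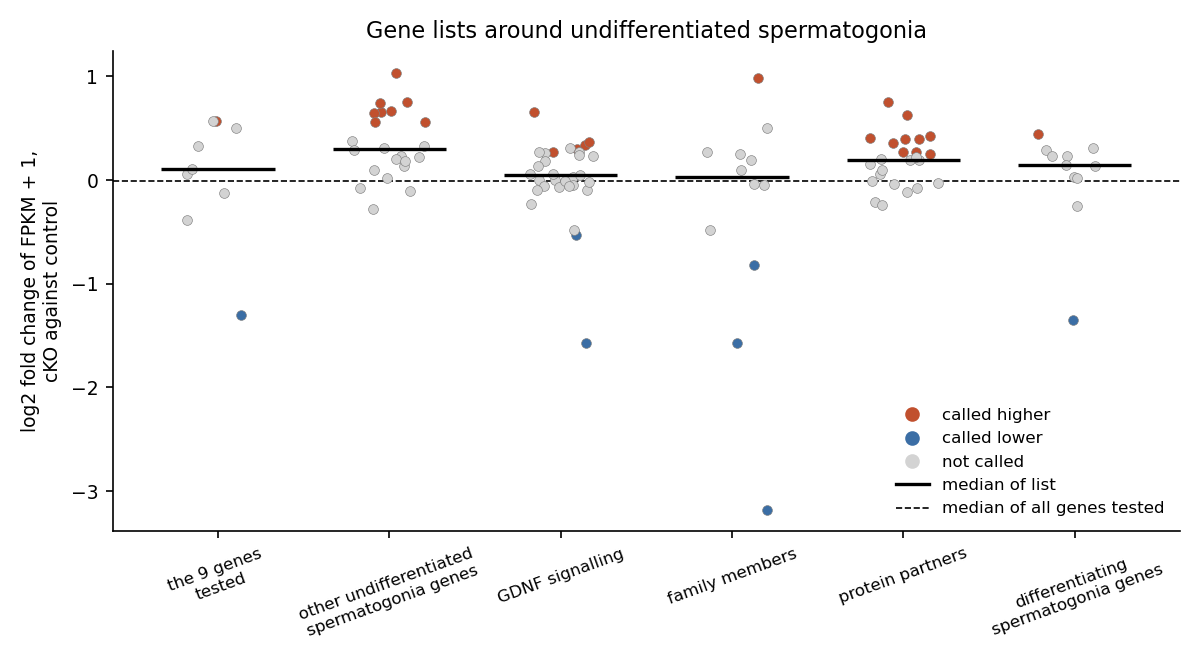
Log2 fold change of each gene tested in the 9 genes and in 5 further lists, with 1 point a gene and the median of each list. The median is 0.11 for the 9 genes, 0.30 for the other undifferentiated spermatogonia genes, 0.05 for GDNF signalling, 0.03 for family members, 0.20 for protein partners and 0.15 for differentiating spermatogonia genes.

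Of 24 partner genes tested, 10 were called higher and none lower, with a median of 0.20, beside 11.8% higher and 22.2% lower over all genes. The same shares apply to the lists that follow. Beside *Dnd1*, which is in both lists, *Tut4*, *Tcf3*, *Pum2* and *Cnot8*, these were the NuRD genes *Gatad2b* (0.43), *Chd4* (0.41), *Hdac2* (0.39), *Gatad2a* (0.27) and *Rbbp7* (0.27), whose complex binds SALL4. The NuRD genes *Rbbp4* (0.19), *Mta2* (0.19), *Mta3* (0.15), *Hdac1* (-0.03), *Mta1* (-0.11) and *Mbd3* (-0.24) were not called. The count was 4 without cKO replicate 1, 6 without cKO replicate 3 or control replicate 3, 3 after scaling to differentiating spermatogonia genes and 14 after quantile normalisation. Of 12 family members tested, *Id1* was called higher, *Pou5f2*, *Gfra2* and *Zbtb32* lower, and the median was 0.03. *Pou5f2* and *Gfra2* reached the test only through the controls. The number of family members called higher was 3 without control replicate 2. It was 0 without cKO replicate 1, cKO replicate 3, control replicate 1 or control replicate 3, and 0 at a mean of at least 5 FPKM. With limma-voom it was 2, and after quantile normalisation 5. In the 11 differentiating spermatogonia genes tested, 1 was called higher (*Nxf2*, 0.44) and 1 lower (*Dmrtb1*, -1.35), with a median of 0.15.

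Of 31 markers of somatic cells, 14 reached the test, 2 were called higher and none lower, beside 11.8% and 22.2% of all genes, with a median of 0.26. The 2 were the Sertoli cell gene *Rhox5* (0.72) and the collagen gene *Col1a1* (0.78). The Sertoli cell genes *Inha* (means of 15.7 and 19.7 FPKM in controls and cKO libraries) and *Cldn11* (9.21 and 12.4 FPKM) were above *Ret*, *Gfra1*, *Id4* and *Pou5f1* in level. The summed FPKM of all 31 somatic markers was between 54.4 and 62.2 in controls and between 51.9 and 103.1 in cKO libraries. The sum of 8 peritubular and stromal markers did not overlap between groups, at 6.88, 10.1 and 7.37 FPKM in controls and 16.5, 12.6 and 12.7 FPKM in cKO libraries. The sum of 9 Sertoli markers overlapped, at 36.02, 28.8 and 42.8 against 70.5, 26.1 and 42.3 FPKM. Sums of 6 Leydig markers (2.95 to 14.0 against 6.34 to 10.7 FPKM) and 8 immune, blood and vessel markers (5.80 to 9.25 against 5.85 to 6.83 FPKM) overlapped too. No marker in these lists was at 0 in every library. The part of these cells in the rise of *Ret* and of the other genes was not tested.

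The genes whose pattern over the 6 libraries was most like that of *Id4* were *Spesp1*, *Dynlt1f*, *Gm11992*, *Sppl2b* and *Ndufaf3*, with a Pearson r of log2(FPKM + 1) between 0.9985 and 0.9995 among 12319 protein-coding genes. All 5 were called lower, and 245 genes had an r over 0.99. For *Ret* they were *Mbnl2* (0.997), *Tango2* (0.995), *Pcnp* (0.994), *Gpx7* (0.994) and *Zfand2a* (0.993), of which *Tango2*, *Pcnp* and *Gpx7* were called higher. Only 6 genes had an r over 0.99 with *Ret*. These correlations describe 6 libraries in 2 groups and largely repeat the difference between the groups.

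**Figure D4:**
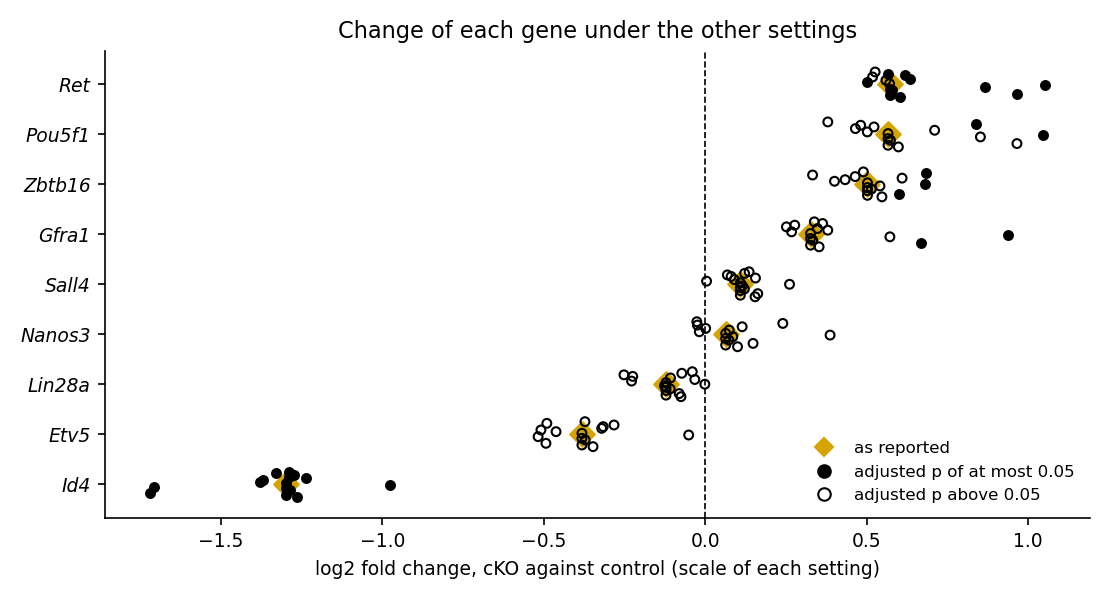
Log2 fold change of the 9 genes tested under the design as reported and under the other settings, with 1 point a setting. *Id4* lies between -1.72 and -0.97 and *Ret* between 0.50 and 1.05 over the alternatives, while *Nanos3* lies on both sides of 0 (-0.03 to 0.39).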

How the data were processed

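RNA-seq of STRA8+ cells was analysed from 1 deposited table of FPKM for 54532 genes, in which the authors had scaled fragments per kilobase to library size. The submitters' processing notes name HISAT2 2.0.5 and mm10, and the tool that counted fragments is not given in the sources used here. FPKM multiplied by gene length and divided by the step that 1 fragment makes in that library gave whole fragments for 100% of values under 1000 fragments, within 0.02 of a fragment. Libraries were grouped by genotype and title. Where the mean over the 6 libraries reached 1 FPKM, log2(FPKM + 1) was fitted using limma 3.58.1 (R 4.3.3, lmFit, then eBayes with a trend, two-sided), with Benjamini-Hochberg adjustment over 15451 genes and a threshold of 0.05. An exact permutation test of 3 against 3 libraries cannot go below 0.1, so none is given. The computation was checked on simulated data. The genes and lists were chosen with earlier results of these data known. All 10 genes, *Srsf1*, *Stra8*, *Kit*, the called genes with the largest changes in each of the 4 lists of related genes (up to 8), paralogs, and the 5 genes most like a called gene were to be named, and other genes named were chosen after their values were seen. Alternatives were a pseudocount of 0.1, other filters, scalings, eBayes without the trend, limma-voom on fragments, a replicate block and leaving out each library. Scaling by the median of ratios of differentiating spermatogonia genes was added after the data were seen. Gene positions are those of GENCODE M21 (GRCm38). Control libraries held a median of 16962222 fragments and cKO libraries 14751933, and genes with under 3 fragments in a library were taken as under its floor.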

Additional observations from a re-analysis of the deposited data

How the results depend on the processing

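The fall of *Id4* was called in all 15 alternatives in which it was tested (adjusted p from limma between 0.000170 and 0.00257), and it was under the filter of a mean of 5 FPKM. The number of the 10 genes called higher was 3 with limma-voom, 4 after quantile normalisation, 0 at a mean of at least 5 FPKM and 0 with the replicate block, and between 0 and 3 with 1 library left out. It was 0 without cKO replicate 1, cKO replicate 3 or control replicate 3, and 3 without control replicate 2. The number called lower was 0 at a mean of at least 5 FPKM. *Nanos3* turned negative when libraries were scaled to differentiating spermatogonia genes (-0.018), without control replicate 1 (-0.024) and without control replicate 3 (-0.026), and ranged from -0.026 to 0.24 with 1 library left out. Over all genes, 1821 were higher and 3437 lower. The higher count was 5164 after quantile normalisation, 688 after scaling to differentiating spermatogonia genes and 969 to 1767 with 1 library left out, over 1.5 times fewer without cKO replicate 1 (1172), cKO replicate 3 (969), control replicate 1 (1068) or control replicate 3 (1079). The lower count was 1950 at a mean of at least 5 FPKM, where fewer genes were tested. Quantile normalisation moved the median of all genes from -0.0082 to 0.21, and scaling to differentiating genes moved it to -0.10. Over the 4 gene lists together, 23 genes were higher and 4 lower. The higher count was 43 after quantile normalisation, 11 after scaling to differentiating genes, and 11 to 23 with 1 library left out. The lower count was 1 at a mean of at least 5 FPKM and 2 after quantile normalisation. The causes were not tested. Depth limits *Nanos2*, which had at most 3 fragments in any library.

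Libraries with the same replicate number did not deviate together (r = -0.0014, -0.11 and 0.016 for numbers 1, 2 and 3). With 3 libraries in a group this cannot exclude pairing, and the labels do not say whether the numbers pair the libraries. With the replicate block, 891 genes were called higher, 11 genes of the lists were higher (2 of GDNF signalling, 4 partners, 6 other undifferentiated spermatogonia genes and 0 family members, with *Dnd1* in 2 lists), and *Ret* had an adjusted p of 0.0646.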
